A study of Mus musculus with 24 samples.

Results

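The 41 genes described here belong to the interferon response and to antigen presentation, and they were followed in livers and hearts of mice with and without the nuclear receptor gene Ppara. They were listed by name for their known roles, with earlier results of these data known, and each was read from its brightest probe set annotated to a single gene over all 24 arrays. In this way 39 of the 41 had a value, among 18193 genes tested in all, while Isg15 and Ifi44 were not analysed here. SV129 mice that were wild-type (WT) or carried the Ppara knockout (KO), 12 males and 12 females of each genotype, were killed at an age of 10 to 12 weeks at zeitgeber time 14, counted in hours from lights on. RNA of 4 animals was pooled for each array, which gave 3 pools in each of 8 groups defined by tissue, sex and genotype, and the labels name no treatment. Pools are called by their label numbers in both tissues, with 1 to 3 for male WT, 4 to 6 for male KO, 7 to 9 for female WT and 10 to 12 for female KO. The labels name no cell-specific deletion, so effects that arise in liver or heart cells cannot be told apart from effects that reach them from elsewhere. Pooling averages 4 animals into 1 value, so the spread between pools is smaller than that between animals.

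Interferons are secreted signals of infection that bind receptors on nearly all cells and activate STAT and IRF transcription factors. These switch on genes that sense viral nucleic acids, block viral replication and raise the display of peptides to T cells. For that display the immunoproteasome cuts proteins into peptides, the TAP transporter carries them into the endoplasmic reticulum, and tapasin loads them onto class I molecules, while class II molecules of macrophages and other presenting cells use the chaperone Cd74. In liver, hepatocytes as well as Kupffer cells, the resident macrophages, respond to interferons. PPARα is a fatty acid receptor that is also known to restrain inflammatory gene expression.

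The DNA just upstream of the genes shows 2 kinds of short motif, which are printed because they are how interferon signals are usually read. GAAANNGAAA (TTTCNNTTTC on the other strand) is the core of the interferon-stimulated response element, to which IRF factors bind. TTCNNNGAA is the core of the gamma-activated site. RefSeq promoter windows of build GRCm38.p6, from 250 bases before to 50 after a start, were matched for 27 of the 39 genes by symbol (32 windows). GAAANNGAAA on either strand was in 15 of these 32 windows (46.9%), against 3.44% of all 32851 windows, and TTCNNNGAA in 7 (21.9%), against 8.3%. The stretches below are the 140 bases before the start of 7 genes described later, 5′ to 3′ on the strand of the gene, with capitals for matches to either motif, which can overlap. The last is the 225 bases between the starts of Tap1 and Psmb9, which are read in opposite directions from it, on the strand of Tap1.
Psmb8, chr17:34198055-34198194, plus strand: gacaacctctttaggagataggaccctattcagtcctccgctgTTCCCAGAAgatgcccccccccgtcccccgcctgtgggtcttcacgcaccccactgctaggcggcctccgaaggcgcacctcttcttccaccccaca
Tapbp, chr17:33919338-33919477, plus strand: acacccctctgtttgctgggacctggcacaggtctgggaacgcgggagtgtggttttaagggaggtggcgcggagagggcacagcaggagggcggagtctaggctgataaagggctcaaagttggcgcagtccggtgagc
Gbp3, chr3:142559904-142560043, plus strand: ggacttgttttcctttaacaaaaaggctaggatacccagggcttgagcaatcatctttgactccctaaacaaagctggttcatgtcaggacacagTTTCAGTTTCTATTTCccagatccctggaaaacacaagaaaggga
Irgm1, chr11:48871421-48871560, minus strand: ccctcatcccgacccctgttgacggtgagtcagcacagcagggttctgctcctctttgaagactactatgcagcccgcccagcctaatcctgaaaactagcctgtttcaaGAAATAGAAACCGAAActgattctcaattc
Igtp, chr11:58199416-58199555, plus strand: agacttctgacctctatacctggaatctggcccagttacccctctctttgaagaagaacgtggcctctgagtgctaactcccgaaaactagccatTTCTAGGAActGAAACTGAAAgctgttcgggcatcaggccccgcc
Ifit1, chr19:34640749-34640888, plus strand: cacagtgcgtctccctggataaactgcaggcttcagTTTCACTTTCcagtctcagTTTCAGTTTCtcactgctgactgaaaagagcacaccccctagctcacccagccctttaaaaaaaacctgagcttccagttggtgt
Bst2, chr8:71537473-71537612, minus strand: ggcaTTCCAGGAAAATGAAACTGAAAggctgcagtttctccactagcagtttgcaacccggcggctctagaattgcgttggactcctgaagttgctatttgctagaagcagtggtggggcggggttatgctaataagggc
Tap1 and Psmb9, chr17:34187331-34187555, plus strand: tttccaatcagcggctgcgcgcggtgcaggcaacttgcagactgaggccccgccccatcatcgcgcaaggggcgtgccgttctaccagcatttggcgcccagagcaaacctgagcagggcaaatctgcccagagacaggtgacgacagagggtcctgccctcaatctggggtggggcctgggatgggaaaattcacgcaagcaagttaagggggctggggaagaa
Irgm1 and Igtp, which encode immunity-related GTPases, had GAAANNGAAA close to the start, beginning 30 and 34 bases before it. Ifit1 had it at 104 and 85 bases and Gbp3 at 45 and 39 bases before the start. Psmb8 had a single TTCNNNGAA at 97 bases, Igtp and Bst2 had both motifs, and Tapbp and the stretch between Tap1 and Psmb9 had neither. A match describes the letters only, and factor binding was not measured.

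The deposited values are log2 intensities. Over all probe sets, the liver arrays had medians of 2.43 to 2.49 and the heart arrays of 3.01 to 3.07. Ppara was lower in all KO than in all WT pools of each tissue and sex, with means of 7.37 to 7.43 against 8.47 to 8.49 in liver and 5.56 to 5.65 against 6.91 to 7.09 in heart. Whether its probes lie inside the deleted stretch was not known. Sex-linked transcripts followed the labels in liver, where Eif2s3y was at most at 2.2 in females. It was lower in the male KO livers, at 3.43, 3.08 and 4.46, than in the male WT livers, at 4.73 to 5.18. In heart, Xist was at 6.62 in the library labelled male KO pool 4 and at most at 3.12 in the other male hearts, and Eif2s3y was at 3.34 in the library labelled female KO pool 10 and at most at 2.5 in the other female hearts. Pool 4 also had the highest summed intensity of skeletal muscle markers among the hearts (143.9, elsewhere at most 55.7), and pool 10 that of hepatocyte markers (310.9, elsewhere at most 71.2). For the main heart comparisons, the median or the count of passing genes is therefore also given without these pools. Values of single genes, and counts at an unadjusted p or without overlap, include them. Liver had its defining markers (Alb, Ttr, Apoa1 and Ahsg, summed linear intensity 31700 or more) and heart its own (Myh6, Tnnt2, Tnni3 and Actc1, 33097 or more).

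Many of the 39 genes were dim, as is usual for interferon-stimulated genes in uninfected tissue. In liver 16 and in heart 13 had a mean within 0.5 of the array median or below it, where changes can hardly be measured. In liver the means ran from 2.21 for Gbp2 to 11.98 for B2m, the light chain of class I molecules, and 10 genes lay above 5. In heart they ran from 2.56 for Mx1 to 9.82 for B2m, with 12 genes above 5. Probe sets bind with different strength, so these values set no order between genes.

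**Figure D1:**
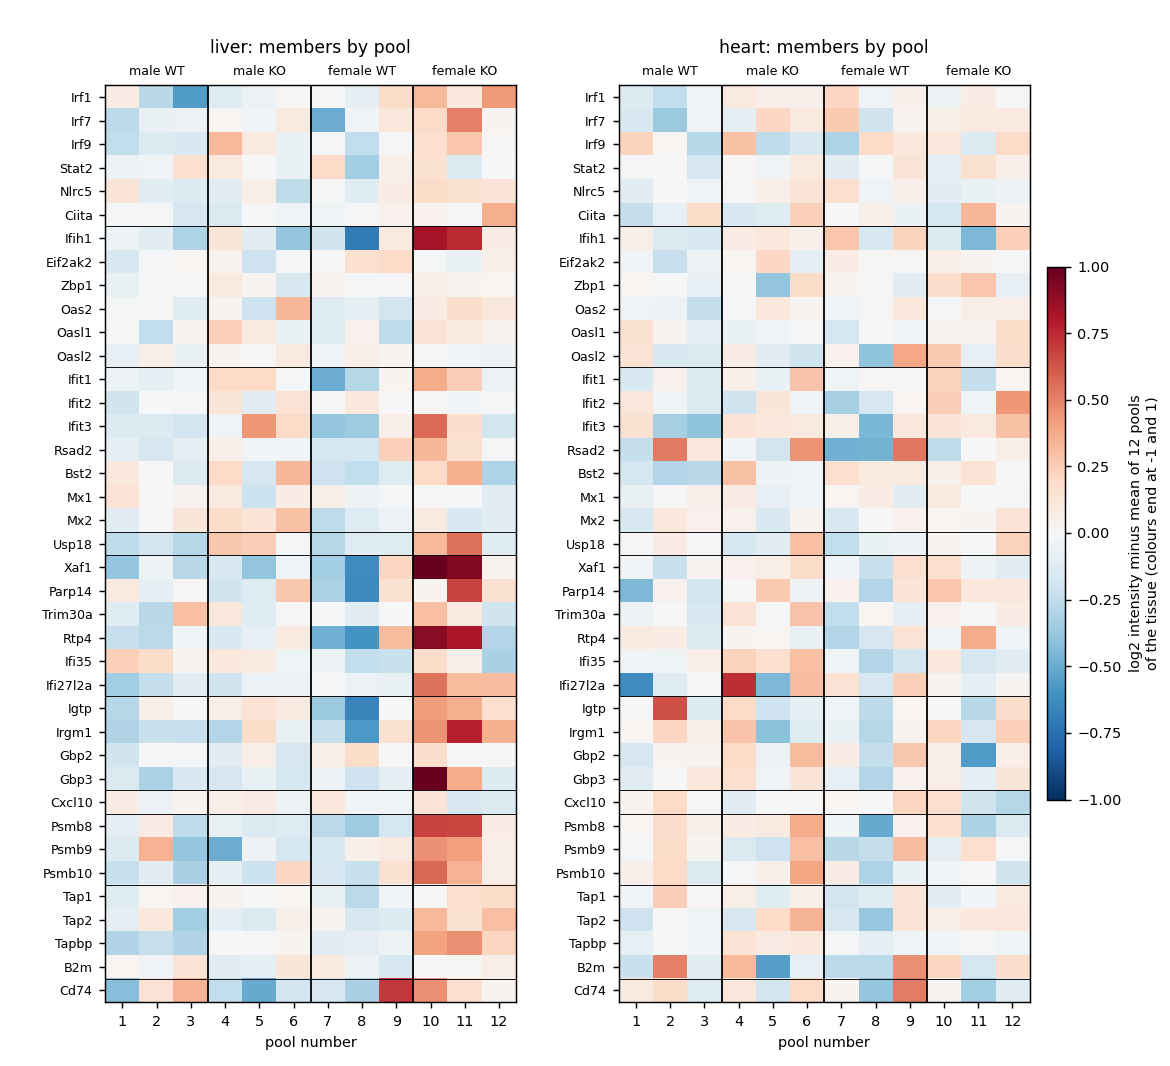
Level of each of the 39 genes (vertical axis, ordered by role) in each pool (horizontal axis) of liver and heart, as log2 intensity minus the mean of the 12 pools of the tissue, with colours ending at -1 and 1. In liver the strongest red lies in female KO pools 10 and 11, for genes such as Xaf1, Rtp4, Ifih1, Gbp3 and Psmb8, while the heart has no group of 3 pools with a like block.

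Between female KO and female WT livers, 3 of the 39 genes were higher and 0 lower in KO in limma (adjusted p under 0.05). Of all 18193 genes, 0.813% passed in this comparison, 0.363% as higher and 0.451% as lower. Those that rose were Tapbp, Psmb8 and Ifi27l2a. The median log2 difference of the 39 genes was 0.26, with 33 of 39 above 0, while over all genes it was -0.0015, with 49.4% above 0. At an unadjusted p under 0.05 stood 19 of the 39 genes, against 6.87% of all genes. The 3 KO pools all lay above the 3 WT pools for 11 of the 39 genes, against 5.18% of all genes, and below them for 0, against 5.21%.

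The immunoproteasome has 3 subunits of its own, which replace catalytic subunits of the constitutive proteasome. Psmb8 was at 4.44, 4.35 and 4.54 in the female WT livers and at 5.39, 5.38 and 4.79 in the KO livers. All KO pools lay above all WT pools, with pool 12 closest to them. The difference was 0.74 ± 0.14 (SE, 1.67-fold, n = 3 pools each, limma adjusted p = 0.0275). A second, dim Psmb8 probe set went from 2.18 ± 0.04 to 2.37 ± 0.08 (SD), also without overlap. Psmb10 was at 6.06, 6.0 and 6.37 in WT and 6.79, 6.57 and 6.29 in KO, so pool 12 fell among the WT pools. Its difference of 0.41 did not pass (limma adjusted p = 0.431), nor did that of Psmb9, at 0.32 (limma adjusted p = 0.83). Among 17 measured genes of the constitutive proteasome and its activators, 0 passed in either direction (2 at an unadjusted p under 0.05) and the median difference was -0.003. The largest, 0.54, was that of Psme1, an interferon-inducible activator subunit, named here after its value was seen.

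Tapasin and the peptide transporter showed smaller differences with little spread. Tapbp, the gene for tapasin, which bridges the transporter and class I molecules, was at 7.50, 7.51 and 7.54 in female WT livers and at 8.0, 8.05 and 7.81 in KO livers. The groups did not overlap, and the difference was 0.44 ± 0.08 (SE, 1.36-fold, n = 3 pools each, limma adjusted p = 0.0154). A second Tapbp probe set went from 4.30 ± 0.13 to 4.79 ± 0.20 (SD), again without overlap. The transporter genes Tap1 and Tap2 were higher in all 3 KO pools than in all WT pools, by 0.24 and 0.35, and did not pass (limma adjusted p = 0.477 and 0.31). The Tap1 probe set used had a liver mean of 2.86, which is itself within 0.5 of the array median. The other 3 probe sets of Tap1 differed by -0.01 to 0.12, with overlap, at levels also near the array median. B2m was at 11.95 ± 0.13 in WT and 12.01 ± 0.04 in KO (SD, n = 3 pools each). Cd74, the class II chaperone, was at 6.02, 5.87 and 6.89 in WT and 6.65, 6.36 and 6.22 in KO, so that WT pool 9 was the highest.

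Ifi27l2a, a gene strongly induced by interferons, was at 3.03, 2.99 and 2.97 in female WT livers and at 3.59, 3.36 and 3.35 in KO livers. Its mean over the livers was low, at 3.05, with the array median at 2.46. The groups were apart by more than the spread within either. It rose by 0.44 ± 0.09 (SE, 1.36-fold, n = 3 pools each, limma adjusted p = 0.0435). Xaf1, Rtp4 and Parp14 had larger differences with more spread between pools. Xaf1, an antagonist of an apoptosis inhibitor, was at 3.42, 3.13 and 3.98 in WT and at 4.86, 4.69 and 3.79 in KO. Pools 10 and 11 were above every WT pool, and pool 12 lay under WT pool 9. Its difference of 0.94 ± 0.25 (SE) was the largest of the 39 and did not pass (limma adjusted p = 0.175). Its second probe set, at 2.43 ± 0.11 and 2.43 ± 0.06 (SD), was at the array median. Rtp4, which encodes a receptor transporter, was at 2.79, 2.67 and 3.59 in WT and at 4.18, 4.09 and 2.98 in KO, again with pool 12 among the WT pools. The differences of Parp14, Ifi35 and Trim30a were 0.55, 0.15 and 0.10, none of which passed.

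**Figure D2:**
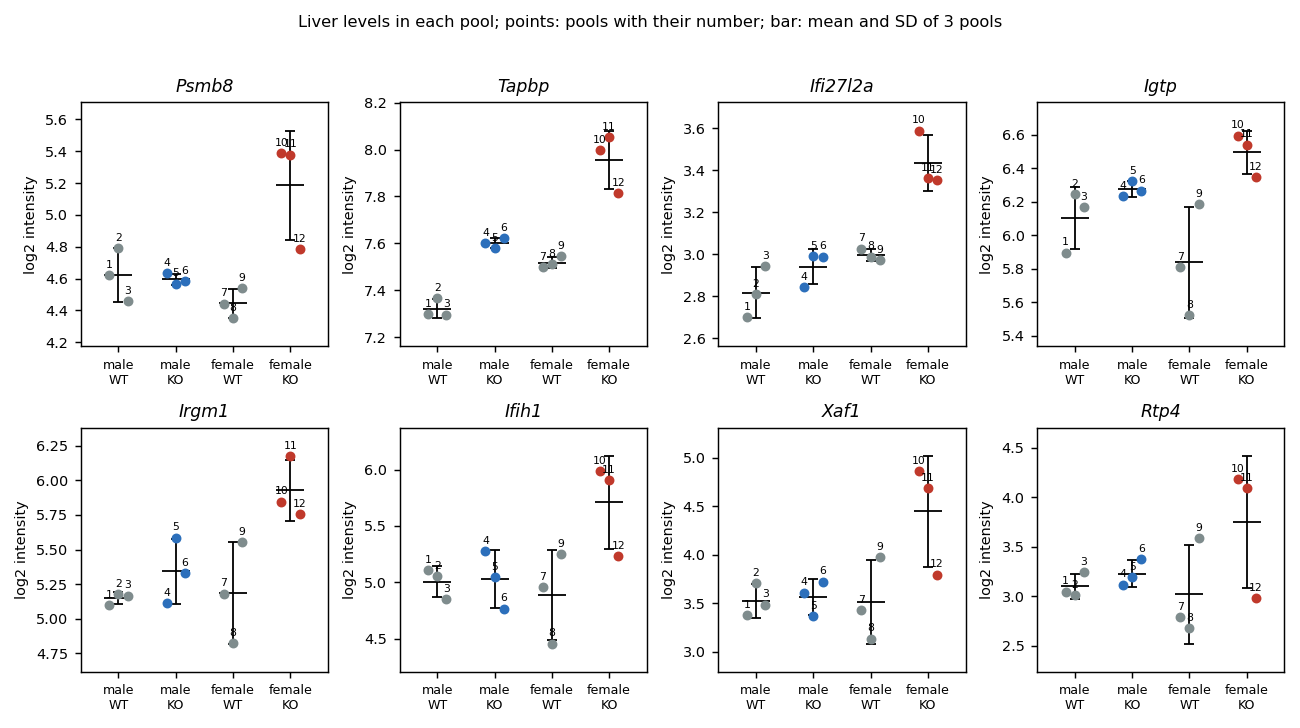
Log2 intensity (vertical axis, a separate scale for each gene that does not start at 0) of 8 genes in the 12 liver pools by sex and genotype, with each point a pool with its number and the bars the mean and SD of 3 pools. In every panel female KO pools 10 and 11 lie above the 3 female WT pools, and pool 12 lies above them for Psmb8, Tapbp, Ifi27l2a, Igtp and Irgm1 only.

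Of the 4 GTPases induced by interferon gamma, 3 were higher by over 0.5 in the female KO livers and 0 passed. Irgm1, which acts on vacuoles that hold pathogens, was at 5.18, 4.82 and 5.55 in WT and at 5.85, 6.18 and 5.76 in KO. Igtp, a related GTPase, was at 5.81, 5.52 and 6.18 in WT and at 6.60, 6.54 and 6.35 in KO. Neither gene overlapped between the groups, and the differences were 0.74 ± 0.17 and 0.66 ± 0.15 (SE, limma adjusted p = 0.0796 and 0.0635). Gbp3, a guanylate-binding protein gene, stood at 2.40, 2.24 and 2.36 in WT and at 3.60, 2.82 and 2.31 in KO. Pools 10 and 11 lay above all WT pools and pool 12 among them, but only pool 10 was more than 0.5 above the array median. Gbp2 was below the array median in both groups, with means of 2.29 and 2.28. The chemokine gene Cxcl10 was also near the array median, and its difference was -0.08.

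Among the 6 sensors of viral RNA and DNA, Ifih1, which encodes the cytosolic RNA sensor MDA5, had by far the largest difference. It was at 4.96, 4.46 and 5.25 in female WT livers and at 5.99, 5.90 and 5.23 in KO livers. Pool 12 overlapped with WT pool 9, and the difference of 0.82 ± 0.22 (SE) did not pass (limma adjusted p = 0.163). The differences of Eif2ak2, Zbp1, Oas2, Oasl1 and Oasl2 ran from -0.13 to 0.26, and only Oas2 had no overlap. The 7 antiviral effectors, which block viral entry, translation or release, had a median difference of 0.20, from -0.04 for Ifit2 to 0.44 for Ifit1. None passed (smallest limma adjusted p = 0.28, with 2 at an unadjusted p under 0.05), and Ifit1, Ifit2, Mx1 and Mx2 lay within 0.5 of the array median or below it. Usp18, which removes Isg15 from proteins and damps the receptor, was higher by 0.43 (limma adjusted p = 0.338) without overlap, at a level that was also within 0.5 of the array median.

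All 6 regulators had a positive difference in female liver, from 0.03 for Stat2 to 0.38 for Irf7, and 0 passed (2 at an unadjusted p under 0.05). Irf7, Irf9 and Stat2 act in the response to type I interferon, Irf1 in that to interferon gamma, and Nlrc5 and Ciita switch on class I and class II genes. Irf9 and Nlrc5 had no overlap, with differences of 0.25 and 0.17. Nlrc5 and Ciita lay near the array median, with WT means of 2.48 and 2.46.

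**Figure D3:**
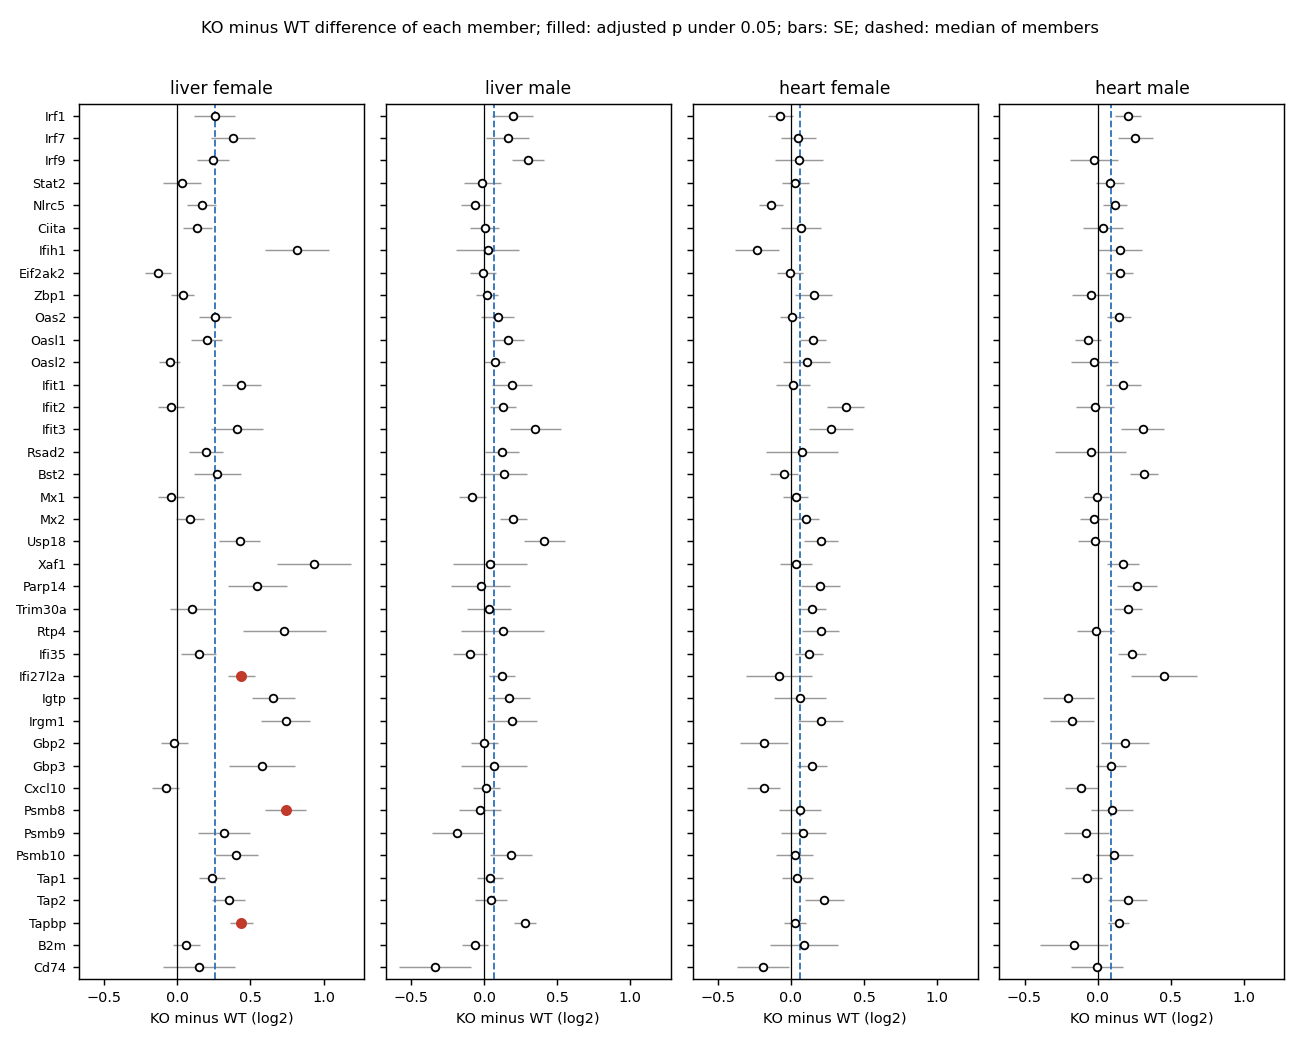
KO minus WT difference (horizontal axis, log2) of each of the 39 genes (vertical axis) in female liver, male liver, female heart and male heart, with bars for the standard error, filled points for an adjusted p under 0.05 and a dashed line at the median of the genes. The median is 0.26 in female liver and 0.06 to 0.09 in the other 3 panels, and only female liver has filled points, for Ifi27l2a, Psmb8 and Tapbp.

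The differences in female liver came mostly from KO pools 10 and 11. Over the 39 genes, the median distance from the mean of the female WT livers was 0.34 in pool 10, 0.29 in pool 11 and 0.10 in pool 12. Pool 10 was above all 3 WT pools for 29 genes, pool 11 for 26 and pool 12 for 13. Among all 12 liver pools, pool 10 was the highest for 15 of the 39 genes, and WT pool 8 the lowest for 9. Such counts for single pools, here and below, were not made over all genes. Whether they exceed the usual share is therefore not known. The 3 calls depended on single pools. Without pool 12, 9 genes passed (Gbp3, Ifi27l2a, Ifih1, Igtp, Psmb8, Rtp4, Tapbp, Usp18 and Xaf1), and without WT pool 9, 3 passed (Igtp, Irgm1 and Tapbp). Of all 18193 genes, 148 passed with every pool, 66 as higher. Without pool 12 this rose to 203, 127 as higher, and without WT pool 9 it was 132, 54 as higher. Without pool 7, 8, 10 or 11, 0 of the 39 passed, where 96, 90, 117 and 88 of all genes did. The median difference of the 39 was then 0.24, 0.25, 0.23 and 0.21. With only the 6 female arrays in the fit 0 of the 39 passed, where 55 of all genes did. Over 14 alternatives, Psmb8 differed by 0.47 to 0.94 and passed in 8 (limma adjusted p from 0.000327 to 0.276), Tapbp by 0.39 to 0.51 and passed in 8 (0.000428 to 0.193), and Ifi27l2a by 0.36 to 0.48 and passed in 4 (0.017 to 0.492).

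Markers of macrophages and Kupffer cells varied between the same pools. All 11 markers of the list were measured, 0 passed in female liver (2 at an unadjusted p under 0.05), and their median KO minus WT difference was 0.32. Their summed linear intensity was 414 to 802 in the female WT livers and 583 to 775 in the KO livers. Per pool, the median deviation of the markers from the liver mean was -0.34, -0.15 and 0.51 in WT pools 7, 8 and 9 and 0.48, 0.38 and 0.08 in KO pools 10, 11 and 12. WT pool 9 was about as high in these markers as KO pool 10, and the deviation of the 39 genes was 0.0014 in pool 9 and 0.19 in pool 10. Of the 6 female liver pools, WT pools 7, 8 and 9 were the lowest for 9, 17 and 5 of the 39 genes. KO pools 10, 11 and 12 were the lowest for 0, 3 and 5. Pool 12 was the lowest KO pool in these markers and, at a median distance of 0.10 from the female WT mean, also in the 39 genes. Without pool 9 the median difference of the 39 genes was 0.33. Of the defining Kupffer markers, Clec4f, Vsig4 and Cd5l were well above the array median and Timd4 lay at it. Markers of dendritic, B, T and NK cells and neutrophils had summed intensities in the female KO livers of 32.1 to 35.2, 15.8 to 17.1, 40.0 to 42.9 and 10.8 to 11.9, against 31.7 to 33.5, 15 to 16, 40.1 to 41.1 and 11.2 to 11.7 in WT, so these ranges met or overlapped. All of these markers but Cd3e, at 3.20, had liver means within 0.5 of the array median of 2.46 or below it. Their sums could therefore hardly show a change in these cells. Endothelial markers summed to 54.9 to 68.3 in WT and to 50.2 to 54.0 in KO, lower in all 3 KO pools, and 0 of 4 passed (1 at an unadjusted p under 0.05). Of these, Pecam1, Cdh5 and Tek had liver means of 2.79, 2.64 and 2.83, within 0.5 of the array median. Only Kdr, at 5.15, lay well above it, so it made up most of the sum. The median deviation of the 4 markers overlapped, at -0.01 to 0.20 in WT and -0.11 to 0.10 in KO. The part of macrophages in the differences was not tested, and in such bulk RNA a change in the number of a cell type cannot be told apart from a change of RNA per cell.

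**Figure D4:**
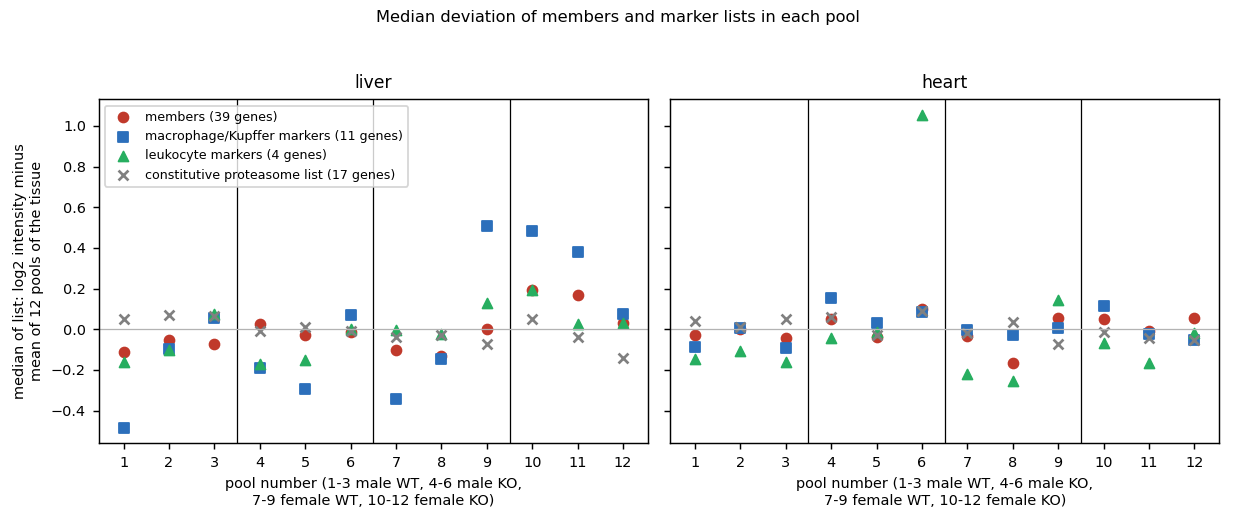
Median deviation (vertical axis, log2 intensity minus the mean of the 12 pools of the tissue) of the 39 genes and of 3 other lists in each pool (horizontal axis) of liver and heart. In liver the macrophage and Kupffer markers are high in WT pool 9 and KO pools 10 and 11. The 39 genes are high in pools 10 and 11 and near the liver mean in pool 9. In heart the leukocyte markers stand apart in pool 6.

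Other genes of the pathway were read from lists that hold none of the 39. Of 53 measured further interferon-stimulated genes, 3 rose in female KO livers and 0 fell, with a list median of 0.09. Ly6e, which codes for a membrane protein that hinders viral fusion, was at 8.40, 7.92 and 8.27 in WT and at 9.5, 9.44 and 8.84 in KO. It rose by 1.06 ± 0.16 (SE, 2.09-fold, limma adjusted p = 0.004), but a second, dimmer probe set, used when those that can bind related transcripts were left out, differed by 0.19 (limma adjusted p = 0.826). Ifi27, a relative of Ifi27l2a, was at 6.22, 5.75 and 6.32 in WT and at 7.36, 7.29 and 6.53 in KO, a rise of 0.97 ± 0.20 (SE, limma adjusted p = 0.0433). With its second probe set the difference was 0.68 (limma adjusted p = 0.0574). Ifitm3, a membrane protein gene that restricts viral entry, was at 9.75, 9.40 and 9.69 in WT and at 10.26, 10.44 and 10.10 in KO, a rise of 0.66 ± 0.12 (SE, limma adjusted p = 0.0175). None of these 3 genes overlapped between the groups. Ly6e passed with any single pool left out, Ifitm3 did not pass without pool 8, 10 or 11 (smallest difference 0.55, limma adjusted p = 0.0816 without pool 8), and Ifi27 passed with a pool left out only without pool 12. With the 6 female arrays alone none of the 3 passed (limma adjusted p = 0.146, 0.368 and 0.17 for Ly6e, Ifi27 and Ifitm3). Of 12 interferon and receptor genes, 23 of signalling, 12 of class I and 11 of class II presentation, 0 passed in female liver, with 0, 1, 2 and 1 at an unadjusted p under 0.05 and medians of -0.05, 0.02, 0.03 and -0.05.

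In male liver 0 of the 39 genes passed in limma, where 0.605% of all genes did, and 3 stood at an unadjusted p under 0.05 (Tapbp, Usp18 and Irf9), against 8.75% of all genes. The median difference was 0.07, with 29 of 39 above 0, against 0.01 and 53.6% of all genes. The 3 KO pools lay above the 3 WT pools for 8 genes, against 8.62% of all genes, and below them for 0, against 8.09%. Tapbp was at 7.30, 7.37 and 7.30 in male WT livers and at 7.60, 7.58 and 7.62 in KO livers, higher in all 3 by 0.28 ± 0.08 (SE, limma adjusted p = 0.216). Its second probe set differed by 0.41, with overlap. Psmb8 was at 4.62, 4.79 and 4.46 in WT and 4.63, 4.57 and 4.58 in KO, with the KO pools inside the WT range. Usp18 was higher by 0.41 and Ifit3 by 0.35, both without overlap (limma adjusted p = 0.395 and 0.599), and Cd74 differed by -0.34 with overlap. Xaf1, Ifih1 and Rtp4 differed by 0.04, 0.03 and 0.13. Irf9, Tapbp and Usp18 were the 3 genes without overlap in the livers of both sexes. Ly6e, Ifi27 and Ifitm3 were higher in male KO livers by 0.55, 0.76 and 0.29 and did not pass (limma adjusted p = 0.254, 0.181 and 0.502).

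The difference between the sexes in the effect of the genotype was tested as a contrast of its own in liver. KO minus WT, taken with its sign, was higher in females than in males for 32 of the 39 genes. The median contrast was 0.16 against -0.01 over all genes, of which 47.2% were above 0. In limma 0 of the 39 passed, where 0.066% of all genes did, with 6 at an unadjusted p under 0.05 against 4.78%. Psmb8 had the smallest p of the 39, with a contrast of 0.77 ± 0.20 (SE, limma adjusted p = 0.667). Xaf1 and Ifih1 had contrasts of 0.89 and 0.79 (limma adjusted p = 0.994 and 0.964). Without female KO pool 12, Psmb8 passed, where 30 of all genes did, against 12 with it.

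The sexes were also compared directly. In KO livers 2 of the 39 genes were higher in females and 0 lower, where 1.93% of all genes passed, 1.15% as higher and 0.781% as lower. Ifi27l2a was at 2.84, 2.99 and 2.99 in male KO livers, under all 3 female KO pools, with a difference of 0.49 ± 0.09 (SE, limma adjusted p = 0.0115). Tapbp was higher in females by 0.35 ± 0.08 (SE, limma adjusted p = 0.0319) without overlap. Its second probe set was not higher, at 4.79 ± 0.20 in female and 4.84 ± 0.30 in male KO livers (SD). With the mean of its probe sets Tapbp did not pass. Psmb8 was higher in females by 0.59 ± 0.14 (SE), which did not pass (limma adjusted p = 0.0576). The median was 0.13, from 0.08 without female pool 11 to 0.19 without female pool 12, with 14 at an unadjusted p under 0.05 against 10.9% of all genes. In WT livers 0 passed, where 1.76% of all genes did, with 2 at an unadjusted p under 0.05 against 12.3%, and a median of 0.0086. Tapbp and Ifi27l2a were higher in females without overlap in WT livers too, by 0.20 and 0.18 (limma adjusted p = 0.303 and 0.46). The second Tapbp probe set was at 4.30 ± 0.13 in female and 4.44 ± 0.34 in male WT livers (SD). The count in KO livers was 0 without male KO pool 4, 1 without male pool 5 or 6 or female pool 10 or 11, and 7 without female pool 12. Of all genes, 352 passed with every pool (210 as higher), 219 without male pool 4 and 421 without female pool 12 (305 as higher). This comparison shares the female KO livers with the comparison of genotypes above. In heart 0 of the 39 differed between the sexes in either genotype, where 0.0275% of all genes passed in WT and 0.011% in KO, with 2 and 1 at an unadjusted p under 0.05 against 6.18% and 6.76%, and 0 passed without pools 4 and 10.

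In male heart 0 of the 39 passed in limma, where 0.401% of all genes did, and 5 stood at an unadjusted p under 0.05 (Bst2, Ifi35, Irf1, Irf7 and Trim30a), against 6.58% of all genes. The median difference was 0.09, with 22 of 39 above 0, against 51.4% of all genes. The KO pools lay above the WT pools for 7 genes (Bst2, Ifi35, Irf1, Nlrc5, Oas2, Tapbp and Xaf1), against 5.91% of all genes, and below them for 0, against 5.46%. Bst2, which tethers budding virus to the cell, was at 4.16, 4.04 and 4.05 in male WT hearts and at 4.63, 4.28 and 4.29 in KO hearts, higher in all 3 by 0.32 ± 0.10 (SE, limma adjusted p = 0.374). Pool 4 was the highest of these KO hearts, and without it the difference of Bst2 was 0.20. The counts above at an unadjusted p and without overlap include pool 4. Ifi27l2a was at 6.23, 6.73 and 6.84 in WT and at 7.59, 6.40 and 7.16 in KO, with pool 4 highest and pool 5 within the WT range. Psmb8 was at 4.87, 5.02 and 4.90 in WT and 4.92, 4.94 and 5.22 in KO, and only pool 6 lay above the WT pools.

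Male KO heart pool 6 stood apart in leukocyte markers. The 4 markers (Ptprc, Laptm5, Coro1a and Cd52) had a median deviation of 1.05 there, against at most 0.15 in the other hearts, and pool 6 was the highest heart pool for 9 of the 39 genes. Without pool 6 the median difference in male heart was 0.04, and without pool 4 it was 0.11, with 0 genes passing in both cases. The T and NK cell markers reached a summed intensity of 88.1 in male KO hearts, against at most 68.3 in the other hearts, while B cell markers did not stand out, at 21.5 to 21.8. The B cell markers Cd79a, Cd79b and Ms4a1 had heart means of 3.10, 2.91 and 2.56. These lay near or below the heart array median, where changes can hardly be measured. Summed macrophage and Kupffer marker intensities were 816.8 to 937.2 in male KO hearts and 741.4 to 781.4 in male WT hearts, without overlap. Of these 11 markers, 9 had a positive and 2 a negative difference, with a median of 0.16. In limma 0 of them passed, with 5 at an unadjusted p under 0.05. The part of any of these cell types in the differences was not tested.

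In female heart 0 of the 39 passed, where 0.533% of all genes did, and 1 stood at an unadjusted p under 0.05, against 6.85%. The median difference was 0.06, with 30 of 39 above 0, against -0.0053 and 48.0% of all genes. The KO pools lay above the WT pools for 2 genes, Oasl1 and Usp18, against 5.57% of all genes, and below them for 1, Nlrc5, against 6.58%. Ifit2, an RNA-binding inhibitor of translation, was at 3.69, 3.87 and 4.05 in WT and 4.28, 3.99 and 4.46 in KO, a difference of 0.37 ± 0.13 (SE, limma adjusted p = 0.466) with pool 11 among the WT pools. Psmb8 was at 4.81, 4.35 and 4.89 in female WT hearts and at 5.01, 4.53 and 4.70 in KO hearts, with overlap. Tapbp was at 7.84, 7.77 and 7.82 in WT and at 7.83, 7.86 and 7.82 in KO, also with overlap. Its second probe set, however, was at 5.02 ± 0.15 in WT and 5.44 ± 0.12 in KO (SD), a difference of 0.42 without overlap, so the probe sets of Tapbp disagreed in female heart. WT pools 7 and 8 were each the lowest heart pool for 10 of the 39 genes. The median difference was 0.0067 without pool 8, 0.04 without pool 10 and up to 0.12 with another pool left out. In all these cases 0 genes passed. In the sex-by-genotype contrast of heart 0 of the 39 passed, where 0.0% of all genes did, with 4 at an unadjusted p under 0.05 against 4.51% and a median of -0.03, or -0.07 with 0 passing without pools 4 and 10.

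The effect of the genotype was also compared between liver and heart, as the difference in liver minus that in heart. In females 31 of the 39 genes were above 0, with a median of 0.22 against 0.0049 over all genes, of which 51.3% were above 0. In limma 0 passed, where 0.698% of all genes did, and 9 stood at an unadjusted p under 0.05, against 7.42%. The smallest adjusted p was that of Tapbp, 0.052, for a contrast of 0.41 ± 0.10 (SE). With the mean of its probe sets the contrast was 0.24, since the second probe set differed by 0.49 in liver and by 0.42 in heart. Ifih1 had the largest contrast, 1.05 ± 0.28 (SE, limma adjusted p = 0.1). The count was 4 without liver KO pool 12 (Ifih1, Psmb8, Tapbp and Xaf1) and 1, Ifih1, without liver WT pool 9 or heart KO pool 12. Of all genes, 172, 134 and 100 passed without these pools in turn, against 127 with every pool. The median of the 39 genes was 0.11 without heart WT pool 9 and 0.23 without heart pool 10. Outside the 39, Ly6e passed, with a contrast of 0.89 ± 0.21 (SE, limma adjusted p = 0.0439), or 0.08 with its other probe set, and did not pass without liver pool 8, 9, 10 or 11 or heart pool 7, 9, 10, 11 or 12. In males the median was -0.02, with 18 of 39 above 0, against 50.8% of all genes, and 0 passing, where 0.517% of all genes did, and 2 stood at an unadjusted p under 0.05 against 7.77%. Without pool 4 the median was -0.0063.

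Livers and hearts of a group came from the same 12 animals, and the labels do not say whether equal pool numbers hold the same 4. Over the 12 pools, each value taken from its group mean, the correlation of a gene between liver and heart had a median Pearson r of -0.03 over the 39 genes and -0.0006 over all genes. Without pools 4 and 10 the median over the 39 was -0.07. An r of 0.5 or more was seen for 6 of the 39 (15.4%), against 9.04% of all genes. The smallest adjusted p in an exact two-sided permutation test within groups (1296 arrangements, adjusted over all genes) was 0.9. Pools 10 and 11, high for these genes in female KO livers, did not lead them in heart, where pool 10 was the highest of the 12 for 2 genes and pool 11 for 4.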

How the data were processed

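Total RNA of 24 pools was labelled and hybridised to Affymetrix mouse arrays. The authors made the deposited log2 intensities with RMA, per the submitters' processing notes; its version and the genome build are not given in the sources used here. RMA normalizes all arrays to 1 distribution, here seemingly within each tissue, so levels were not compared across tissues. Of 45101 probe sets, 64 were controls, 34945 named 1 gene, 932 several and 9160 none; only those with 1 gene were used. Of the 39 genes measured, 15 had several probe sets. Tests used limma 3.58.1 under R 4.3.3 (lmFit, eBayes, cell means, two-sided, Benjamini-Hochberg over 18193 genes, threshold 0.05), on the 12 arrays of a tissue, or on all 24 for tissue by genotype, and the pipeline was tested on simulated data. The number of arrays limits the precision, and whether the pools are independent beyond holding different animals is not stated, so p-values measure the spread between pools. All 41 genes could be named, up to 4 called genes of each other list, and Ppara, Xist and Eif2s3y as checks. The genes, lists and rules were chosen with earlier results of these data known. Alternatives were other sets of arrays, a trended robust variance, quantile normalization again, median centring, a filter on dim genes, other probe sets, the pool number as a block, and pools left out. Deviations from the group means over 4043 genes correlated between -0.13 and 0.15 for liver and heart pools of equal number. Deviations in different tissues need not correlate, so this cannot tell whether equal numbers hold the same animals.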

Additional observations from a re-analysis of the deposited data

How the results depend on the processing

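No gene difference that passed changed direction under the alternatives. Medians close to 0 did change sign with a pool left out: those of sex by genotype in heart (-0.10 to 0.02), tissue by genotype in males (-0.08 to 0.03), the sexes in WT liver (-0.02 to 0.04) and the sexes in WT and KO heart (-0.05 to 0.02 and -0.06 to 0.01). So did differences of single genes that did not pass, such as Cd74 in female liver (-0.05 to 0.47). The counts of passing genes among the 39 moved by over 1.5 times, or away from 0, in these cases. For KO against WT in female liver (3), the count was 0 with the compared arrays alone, 5 with all 24 arrays, 6 after quantile normalization again, and 0 to 9 with a pool left out, and otherwise 2 to 4. In male liver (0) it was 1, Tapbp, after quantile normalization again. For tissue by genotype in females (0) it was 2 after quantile normalization again and 0 to 4 with a pool left out, and for sex by genotype in liver (0) it was 0 to 1. For the sexes in KO liver (2) it was 0 with the compared arrays alone, 1 with a trended robust variance, with centred medians or with the mean of probe sets, 0 to 7 with a pool left out, and otherwise 2 to 3. The filter on dim genes, which left 27 of the 39 (23 for tissue by genotype), gave medians of 0.35 for female liver, 0.22 for the sexes in KO liver, 0.33 for tissue by genotype in females and -0.10 in males. With a pool left out the median for tissue by genotype in females was 0.11 to 0.31. Beyond what the fits' construction shows (fewer arrays or genes), the cause was not tested. With the pool number as a replicate block, medians for tissue by genotype were 0.22 in females and -0.02 in males with 0 passing in both. The block was run for tissue by genotype only, where over all genes 111 passed in females (127 without it) and 67 in males (94). Over all genes, the number passing in female liver was 55 with the compared arrays alone and 267 with all arrays, against 148, and in male liver 169 and 180, against 110. A pool left out gave as few as 88 in female liver, 55 in male liver and 61 in female heart (97). Low signal limits the 16 genes in liver and 13 in heart that lay near the array median.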
